A study of Mus musculus with 12 samples.

Results

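The translation initiation factors were the 56 genes whose symbols consist of Eif and a digit with further characters, out of 23420 genes listed in the count files, and 3 other symbols of that form, Eif2ak2, Eif2s3x and Eif2s3y, were not included. The genes were followed across 12 RNA sequencing libraries of mouse splenic cells in 4 groups of 3. Stimulated KO and stimulated WT cells had been held for 24 h with anti-CD3, bound to the plate, and anti-CD28, at 1 µg/ml each, antibodies that stand in for antigen and costimulation. Fresh KO and fresh WT cells carry the label untreated and were taken as not cultured, so that stimulation and culture form 1 factor. KO cells came from OTUB1-CD4Cre-OT-I mice, also labelled OTUB1-DKO, in which Otub1, a gene for a deubiquitinase, is deleted by a Cre recombinase driven from the CD4 promoter, active from developing T cells onward. WT cells came from Wild Type-OT-I mice. All 4 groups shared the C57BL/6 background, an age of 6 to 8 weeks (8 weeks in the extraction text) and the OT-I transgene, a T cell receptor for an ovalbumin peptide. The design names naive CD8 T cells of the spleen, whereas a cell type label names splenic DCs.

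Most eukaryotic messages are translated after a small ribosomal subunit is recruited to the cap and scans to a start codon. eIF2 brings the initiator tRNA, eIF2B reloads eIF2 with GTP, and kinases that phosphorylate the alpha subunit of eIF2 block that reloading. eIF3 holds the small subunit, while the cap-binding protein eIF4E, the scaffold eIF4G and the helicase eIF4A make up eIF4F, and 4E-BP proteins keep eIF4E away from eIF4G until mTOR phosphorylates them. T cells are known for raising protein synthesis when they leave the resting state.

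Levels are CPM, the gene counts of a library scaled to a total of 1e+06 with TMM factors. A gene was called higher or lower at an edgeR quasi-likelihood p under 0.05 after Benjamini-Hochberg adjustment over the 12759 genes tested, and fold changes are log2 values, each with its standard error (SE) from the fitted model. Library totals ran from 15064488 to 25920035 gene counts. Otub1 itself was at 16.2, 13.8 and 14.5 CPM in stimulated KO and 85.7, 100.1 and 96.1 in stimulated WT, with a log2 fold change of -2.66 (SE 0.14, edgeR adjusted p = 1.35e-07). In fresh cells it was at 25.4, 28.8 and 28.6 CPM in fresh KO and 72.6, 70.8 and 45.1 in fresh WT, with a log2 fold change of -1.19 (SE 0.14, edgeR adjusted p = 0.000559). All 6 KO libraries lay below all 6 WT libraries. Y-linked reads were present in 3 libraries, 1 each of stimulated KO, fresh KO and fresh WT. The 7 CD8 T cell markers found in the files summed to 1660 to 1830 CPM in stimulated KO and 1950 to 2100 in stimulated WT, against 5260 to 5500 in fresh KO and 5140 to 5390 in fresh WT. All 7 were called lower with stimulation in each genotype, where 42.2% of all tested genes were in KO and 41.4% in WT. The 10 dendritic cell markers summed to 102 to 121 CPM in stimulated KO and 112 to 132 in stimulated WT, against 1100 to 1640 in fresh KO and 1360 to 1670 in fresh WT. None of these 10 genes was at 0 throughout, and 9 were called lower with stimulation in each genotype. The other, Zbtb46, was called higher in KO, at 6.695 to 8.907 CPM in stimulated KO against 2.535 to 4.698 in fresh KO, and was not called in WT. Of the 9, Clec9a and Siglech had at most 0.2615 CPM in a stimulated library. They passed the filter on low counts through the fresh libraries and had to come out lower. The 5 B cell markers found in the files (at most 27.3 CPM in a stimulated library and at least 106 in a fresh one) and the 5 myeloid markers (at most 73.7 and at least 197) were likewise lower after stimulation, each of them by a called amount in each genotype. Most of the myeloid sum was Ly6c2, at 36.61 to 72.99 CPM in stimulated libraries and 159.7 to 308.8 in fresh ones. Lyz2, Csf1r and S100a8 had at most 0.3325 CPM in a stimulated library, so that they too passed the filter through the fresh libraries and had to come out lower. Among erythroid and NK cell markers, Hba-a1 and Klra8 were at 0 in every library. What such cells contributed to the values of the initiation genes was not tested.

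Of the 56 genes, 53 had counts and passed the filter on low counts. Eif3j1, Eif3j2 and Eif4e1b had 0 counts in all 12 libraries, where 3 counts would have been 0.116 to 0.199 CPM. Eif3j1 and Eif3j2 are near-identical copies, and reads that match more than 1 place were not counted. Whether that accounts for their 0 counts was not tested. Eif2c1 to Eif2c4 are older symbols of the Argonaute genes, which act in silencing by small RNAs and are not initiation factors. They are kept here because the symbol decided membership, and counts are also given without them.

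The start regions of a few of these genes are shown because the helicase paralogs Eif4a1 and Eif4a2 moved in opposite directions with stimulation, while Eif4e and Eif4g1, which encode the partners of eIF4A, moved with Eif4a1. Each sequence is the sense strand from 250 bases before to 50 bases after the annotated start, from RefSeq on GRCm38.p6. Capitals mark the E-box CACGTG, the palindrome to which MYC, MAX and related factors can bind.
Eif4a1, chr11:69672374-69672673, minus strand: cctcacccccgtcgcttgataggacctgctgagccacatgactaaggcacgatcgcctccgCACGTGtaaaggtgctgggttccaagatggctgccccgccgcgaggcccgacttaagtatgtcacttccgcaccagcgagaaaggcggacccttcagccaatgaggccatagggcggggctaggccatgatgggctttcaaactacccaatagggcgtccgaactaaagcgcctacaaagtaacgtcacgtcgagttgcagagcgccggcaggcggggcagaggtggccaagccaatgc
Eif4a2, chr16:23107218-23107517, plus strand: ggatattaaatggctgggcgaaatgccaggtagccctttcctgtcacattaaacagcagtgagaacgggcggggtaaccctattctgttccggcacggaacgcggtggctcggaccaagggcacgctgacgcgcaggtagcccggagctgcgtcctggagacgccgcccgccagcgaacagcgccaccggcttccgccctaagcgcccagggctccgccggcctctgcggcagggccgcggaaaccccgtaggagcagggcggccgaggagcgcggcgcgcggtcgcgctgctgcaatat
Eif4e, chr3:138527018-138527317, plus strand: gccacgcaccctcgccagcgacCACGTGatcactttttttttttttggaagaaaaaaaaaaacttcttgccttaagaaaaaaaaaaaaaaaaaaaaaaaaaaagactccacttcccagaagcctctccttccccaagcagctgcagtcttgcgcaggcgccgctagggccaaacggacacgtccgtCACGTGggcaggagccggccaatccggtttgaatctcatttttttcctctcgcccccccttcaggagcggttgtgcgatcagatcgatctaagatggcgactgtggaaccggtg
Eif4g1, chr16:20672477-20672776, plus strand: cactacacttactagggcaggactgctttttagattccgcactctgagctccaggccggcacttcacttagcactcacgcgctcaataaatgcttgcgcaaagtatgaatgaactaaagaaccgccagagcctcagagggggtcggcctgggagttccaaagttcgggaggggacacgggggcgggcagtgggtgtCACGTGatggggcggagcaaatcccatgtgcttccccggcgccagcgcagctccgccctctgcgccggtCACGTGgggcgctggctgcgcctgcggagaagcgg
The E-box began 189 bases before the start in Eif4a1. It began 228 and 64 bases before it in Eif4e, whose other annotated start region held none, and 54 bases before and 15 after it in Eif4g1. The window of Eif4a2 held no E-box.

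Such windows were available for 43 of the 56 genes, and a gene was counted where any of its windows held the letters on either strand. An E-box stood in 10 of the 43 (23.3%), against 1120 of the 9492 tested genes with a window (11.8%). The 10 genes were Eif1b, Eif3a, Eif3f, Eif3k, Eif4a1, Eif4e, Eif4g1, Eif4h, Eif5a and Eif5a2. With stimulation in WT, 9 of them were called higher and 1, Eif3f, lower, against 23 higher and 7 lower of 32 tested genes of the 56 whose windows held none. The 7 included the Argonaute genes Eif2c1, Eif2c3 and Eif2c4, which are not initiation factors. Eif2c4 passed the filter on low counts through its fresh libraries and had to come out lower. Of all tested genes with a window, 47.4% of those with an E-box and 40.7% of those without were called higher in WT. The ETS letters CCGGAA were found in 53.5% of the 43, against 31.2% of tested genes. With them 15 of 23 initiation genes were called higher and 6 lower in WT, against 17 higher and 2 lower of 19 without, whereas over all tested genes 49.1% with and 38.1% without were called higher. The letters TGACGT of the cAMP response element, which can share end letters with an E-box, were found in 18.6%, against 13.3%. With them 7 of 8 initiation genes were called higher and 1 lower in WT, against 25 higher and 7 lower of 34 without, and over all tested genes 49.8% with and 40.2% without were called higher. The palindromic NRF1 motif was in 2.33%, against 2.42% (called higher in WT were 48.7% of all tested genes with it and 41.3% without), and TGATGNAA, the amino acid response element, in 0, against 2.96%. The Argonaute genes Eif2c1, Eif2c3 and Eif2c4 were counted in each of these splits, so no difference between genes with and without a motif is read from them. These matches are a description of letters, and no factor was measured at them.

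Stimulation was associated with a higher share of transcripts for initiation factors in both genotypes. The 56 genes together held 1.98 ± 0.0252% of gene counts in stimulated KO and 1.93 ± 0.0124% in stimulated WT, against 1.09 ± 0.00538% in fresh KO and 1.11 ± 0.0152% in fresh WT (SD, n = 3 each). In KO, 41 of the 53 tested genes were called higher and 9 lower, where 41.7% and 42.2% of all tested genes were called in those directions. In WT, 40 were called higher and 10 lower, where 40.8% and 41.4% of all tested genes were. The median log2 fold change was 0.92 in KO, against -0.02 over all tested genes, and 0.79 in WT, against -0.03. At least 2-fold higher were 25 genes in KO (19.9% of all tested genes passed that limit) and 21 in WT (18.7%), and 1 gene, Eif2c4, was at least 2-fold lower in each (22.7% and 21.5% of all tested genes). Eif2c4 had 1 to 6 counts in a stimulated library and 22 to 29 in a fresh one, so that it passed the filter on low counts through the fresh libraries and had to come out lower, and nothing is read from its place in these counts. Without the Argonaute genes, 40 of 49 were higher and 6 lower in KO, and 39 were higher and 7 lower in WT.

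The calls were shared between the genotypes to a large degree, although each comparison used its own fresh libraries. In both genotypes 40 genes were called higher and 9 lower, where 38.7% and 38.9% of all tested genes were. Eif2ak1 and Eif2b2 were called in neither genotype. Eif3h was called lower in WT alone and Eif3e higher in KO alone, and the difference between genotypes was not called for either. In these bulk samples, fewer cells of a type and less RNA per cell cannot be told apart, and values are shares of a library, so that total RNA per cell was not measured.

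**Figure D1:**
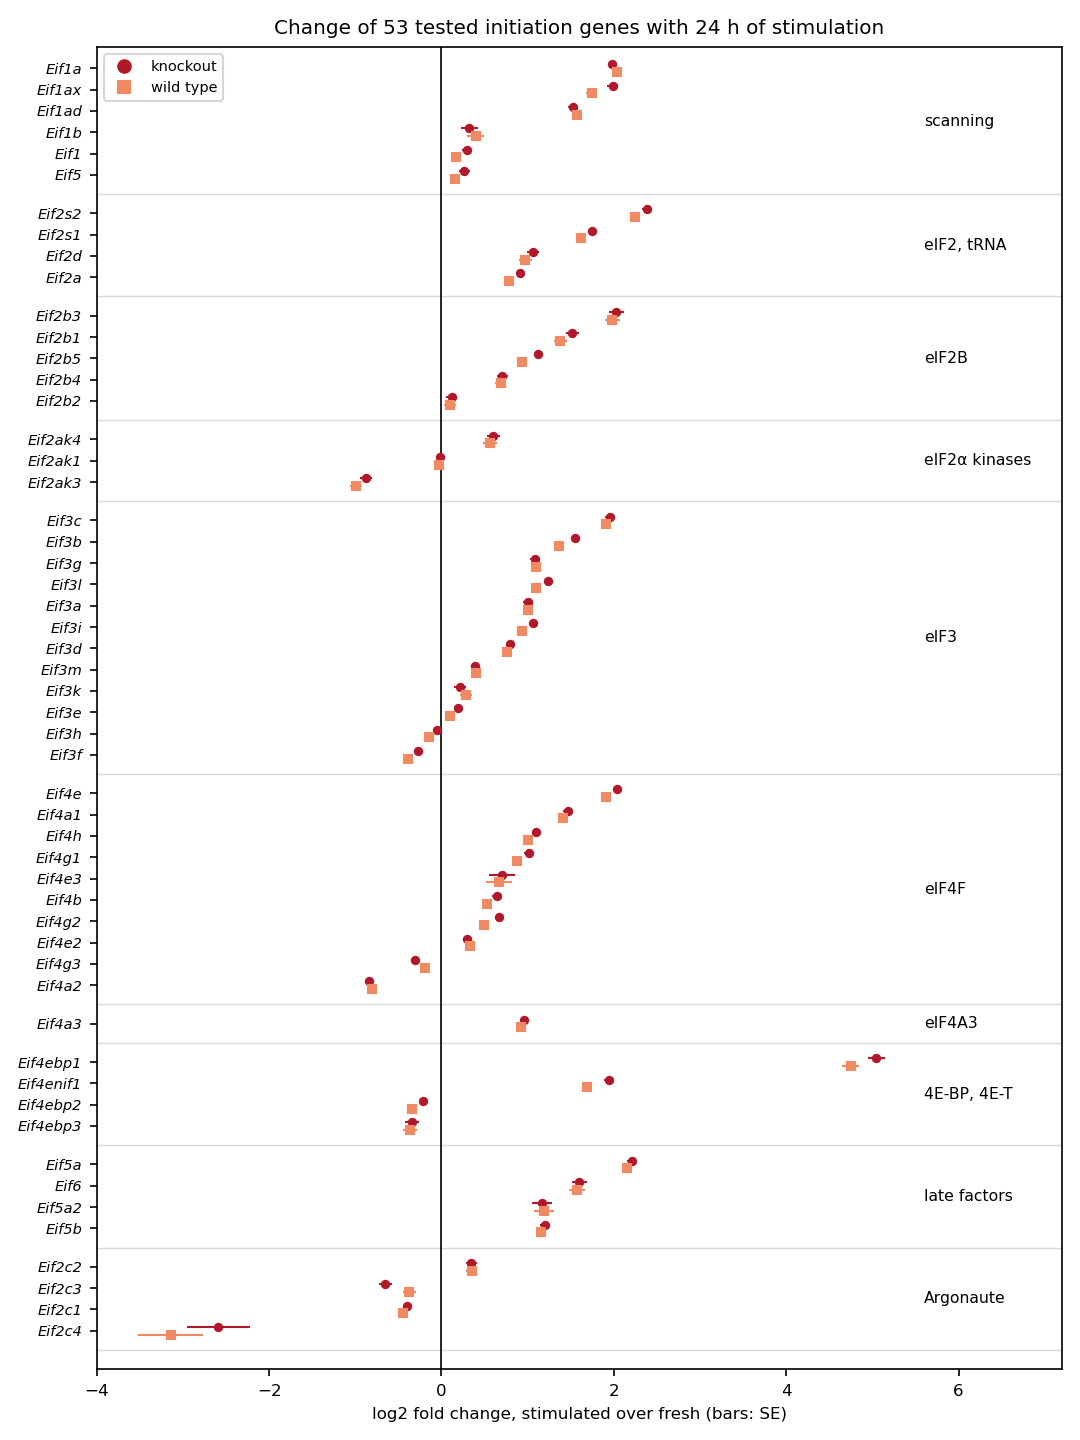
Log2 fold change of the 53 tested genes, stimulated over fresh, in KO (circles) and WT (squares), grouped by role, with bars for the SE of the fit. Eif4ebp1 stands farthest right at 5.05 in KO and 4.75 in WT, and Eif2c4 farthest left.

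All 6 genes of the scanning group, the eIF1, eIF1A and eIF5 genes and Eif1ad, were called higher in each genotype. The share of all tested genes called higher was 41.7% in KO and 40.8% in WT. Eif1a and Eif1ax encode near-identical forms of eIF1A, which steadies the scanning complex, and reads matching both would have been lost from the counts. Eif1a had 222, 245 and 224 CPM in stimulated KO libraries and 229.6, 217 and 226 in stimulated WT, against 59.3, 56.7 and 58.6 in fresh KO and 56.8, 51.7 and 56.0 in fresh WT. Eif1ax had 162, 155.5 and 163 CPM in stimulated KO libraries and 149, 138 and 140.2 in stimulated WT, against 40.9, 38.0 and 42.5 in fresh KO and 38.8, 46.0 and 42.5 in fresh WT. For both genes every stimulated library was far above every fresh one, and the log2 fold changes were 1.98 (SE 0.05, edgeR adjusted p = 1.14e-14) and 1.99 (SE 0.06, edgeR adjusted p = 7.17e-14) in KO and 2.03 (SE 0.05, edgeR adjusted p = 1.39e-14) and 1.74 (SE 0.06, edgeR adjusted p = 4.25e-13) in WT. Eif1, which guards the choice of start codon, moved little: it had 629, 626 and 654.5 CPM in stimulated KO libraries and 610.5, 619 and 649.7 in stimulated WT, against 512, 547.5 and 500.1 in fresh KO and 533, 555 and 578 in fresh WT, a log2 fold change of 0.29 (SE 0.05) in KO and 0.17 (SE 0.05) in WT. Eif1ad, counted in this group only for the eIF1A domain in its name, changed by 1.53 in KO and 1.57 in WT. The paralog Eif1b and Eif5, the GTPase activator of eIF2, changed by at most 0.40. The call for Eif5 in WT (edgeR adjusted p = 0.0267) was lost without stimulated WT replicate 1 (0.123) or fresh WT replicate 1 (0.0998), and that for Eif1b in KO (edgeR adjusted p = 0.00666) without the libraries with Y-linked reads (0.0633).

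All 4 genes grouped as eIF2 subunits and other carriers of the initiator tRNA were called higher in both genotypes. Among all tested genes 41.7% were called higher in KO and 40.8% in WT. The eIF2 subunit genes Eif2s3x and Eif2s3y were not included, so eIF2 was followed only in part. Eif2s2 encodes the beta subunit of eIF2 and lies at chr2:154871410-154892935 on the minus strand (GRCm38, as for the other genes placed here). It had 510.5, 568 and 530.5 CPM in stimulated KO libraries and 492, 503 and 509.9 in stimulated WT, against 103, 98.8 and 107 in fresh KO and 99.5, 105.5 and 112 in fresh WT. Stimulated libraries exceeded fresh ones without overlap, with log2 fold changes of 2.38 (SE 0.06, edgeR adjusted p = 3.7e-15) in KO and 2.25 (SE 0.06, edgeR adjusted p = 8.62e-15) in WT, which is 5.22-fold and 4.75-fold. Eif2s1, the alpha subunit that the eIF2 kinases phosphorylate, averaged 324 ± 6.05 CPM in stimulated KO and 305 ± 7.64 in stimulated WT, against 96.3 ± 1.79 in fresh KO and 98.9 ± 5.55 in fresh WT (SD, n = 3 each). Eif2a and Eif2d encode separate factors that can also deliver tRNA, and their log2 fold changes were smaller, 0.92 and 1.06 in KO and 0.79 and 0.97 in WT.

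Of the 5 subunit genes of eIF2B, 4 were called higher in each genotype and 1, Eif2b2, was not called. Among all tested genes 41.7% were called higher in KO and 40.8% in WT. The gamma subunit gene Eif2b3 had 60.8, 65.3 and 63.1 CPM in stimulated KO libraries and 63.5, 57.6 and 60.9 in stimulated WT, against 17.2, 13.5 and 15.6 in fresh KO and 14.0, 16.2 and 15.7 in fresh WT. It was the subunit with the largest fold change, 2.03 (SE 0.08, edgeR adjusted p = 2.36e-12) in KO and 1.98 (SE 0.09, edgeR adjusted p = 4.53e-12) in WT. The catalytic epsilon subunit gene Eif2b5 had 142, 146 and 148 CPM in stimulated KO libraries and 130.3, 137.5 and 141 in stimulated WT, against 66.1, 66.6 and 67.2 in fresh KO and 70.3, 71.5 and 72.0 in fresh WT, and its stimulated and fresh libraries did not overlap. Its log2 fold change was 1.12 (SE 0.04) in KO and 0.93 (SE 0.04) in WT, and Eif2b1 and Eif2b4, for the alpha and delta subunits, changed by 1.52 and 0.71 in KO and 1.38 and 0.69 in WT. Eif2b2, for the beta subunit, averaged 58.1 ± 3.82 CPM in stimulated KO and 56.0 ± 3.83 in stimulated WT, against 53.5 ± 3.15 in fresh KO and 52.4 ± 2.06 in fresh WT, and its groups overlapped.

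Per kilobase of exon, which allows genes to be compared, eIF2B subunits lay closer together after stimulation. The highest mean level was 3.63 times the lowest in stimulated KO and 3.54 times in stimulated WT, against 8.69 times in fresh KO and 8.59 times in fresh WT. Eif2b3 was the lowest in each group, at 15.7 CPM per kb in stimulated KO and 15.1 in stimulated WT, against 3.84 in fresh KO and 3.799 in fresh WT. The highest was Eif2b5 in stimulated cells (56.9 in KO and 53.3 in WT) and Eif2b2 in fresh cells (33.4 in KO and 32.6 in WT).

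The kinases of eIF2 did not move together. Eif2ak3 encodes PERK, the kinase that answers stress of the endoplasmic reticulum. It had 24.1, 26.8 and 24.7 CPM in stimulated KO libraries and 22.6, 23.3 and 23.3 in stimulated WT, against 43.5, 49.3 and 45.9 in fresh KO and 43.6, 46.0 and 48.7 in fresh WT. All stimulated libraries were below all fresh ones, and Eif2ak3 was called lower, with log2 fold changes of -0.88 (SE 0.07, edgeR adjusted p = 5.75e-09) in KO and -0.996 (SE 0.07, edgeR adjusted p = 1.55e-09) in WT. Eif2ak4, for GCN2, the kinase that answers amino acid shortage, was called higher by 0.60 (SE 0.08) in KO and 0.56 (SE 0.08) in WT. Eif2ak1, for HRI, the heme-regulated kinase, had 69.1, 63.9 and 67.3 CPM in stimulated KO libraries and 68.4, 69.4 and 66.7 in stimulated WT, against 66.8, 66.0 and 69.7 in fresh KO and 69.9, 69.1 and 69.0 in fresh WT. Its groups overlapped, and the log2 fold changes of -0.01 (SE 0.05, edgeR adjusted p = 0.772) in KO and -0.03 (SE 0.05, edgeR adjusted p = 0.643) in WT were not called.

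**Figure D2:**
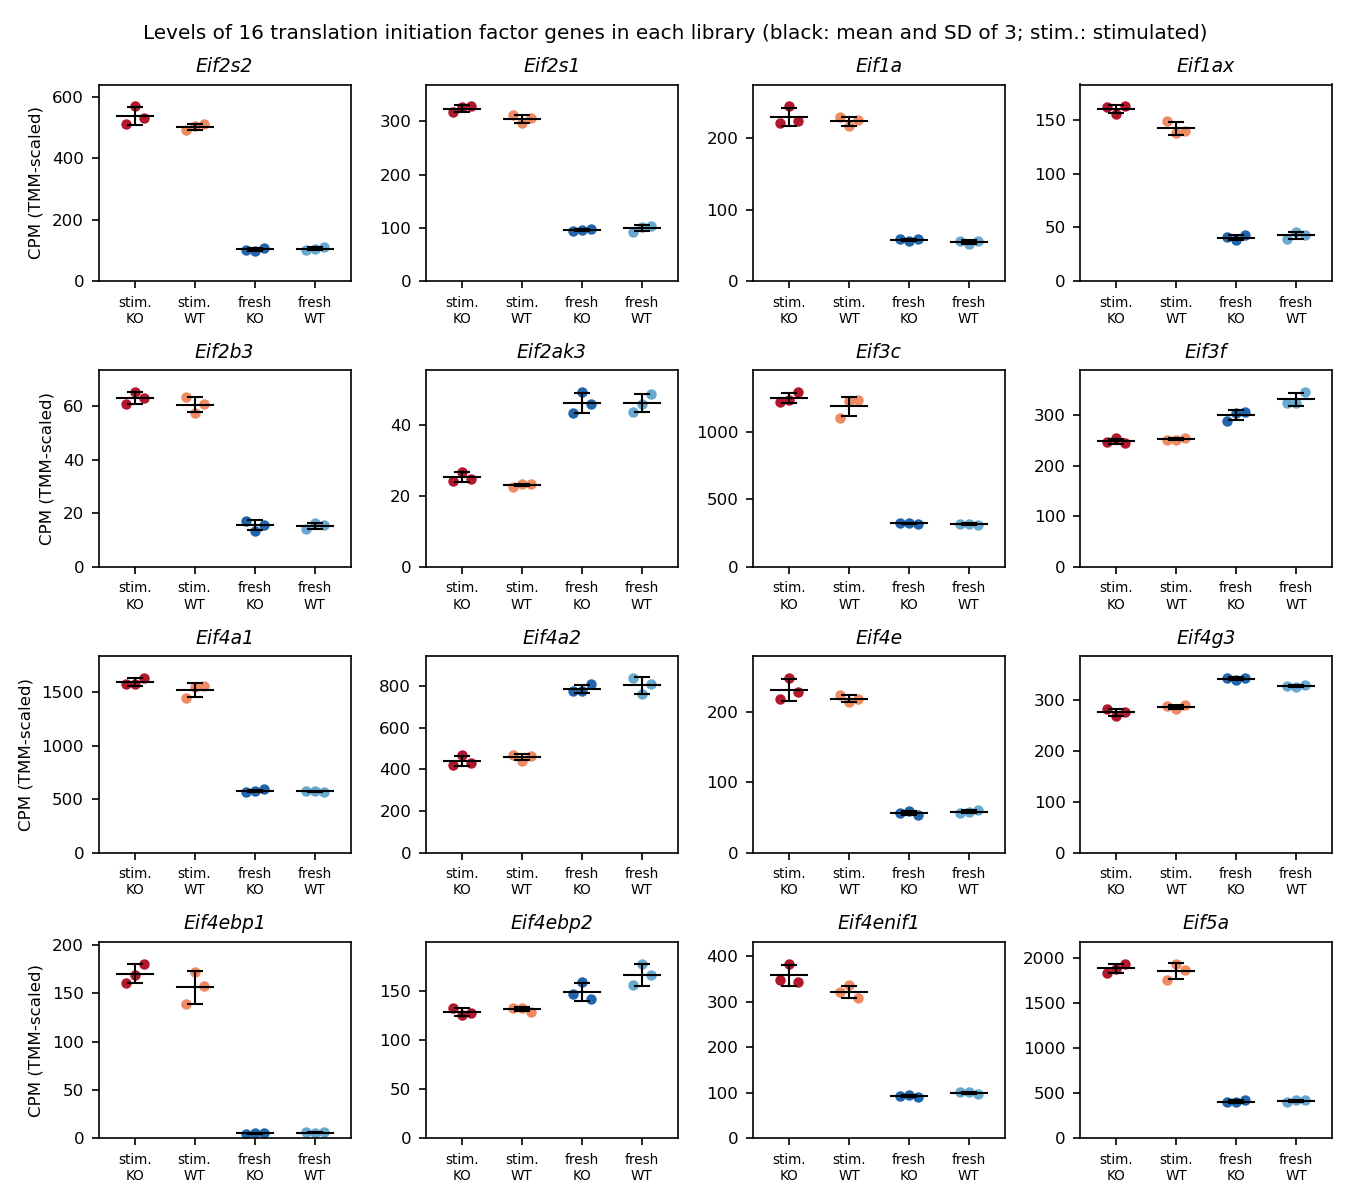
CPM of 16 initiation genes in each of the 12 libraries, in order stimulated KO, stimulated WT, fresh KO and fresh WT, with black lines for the mean and SD of 3 libraries and axes that start at 0. Stimulated libraries are higher for 11 of the genes and lower for Eif2ak3, Eif3f, Eif4a2, Eif4g3 and Eif4ebp2.

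Subunits of eIF3 differed in size and direction of change. Of 12 tested subunit genes, 10 were called higher and 1 lower in KO, and 9 were called higher and 2 lower in WT. The shares of all tested genes were 41.7% higher and 42.2% lower in KO, and 40.8% and 41.4% in WT. Eif3c, for a core subunit that contacts eIF1 and lies at chr7:126546455-126566411 on the minus strand, had 1224, 1233 and 1295 CPM in stimulated KO libraries and 1105, 1226 and 1236 in stimulated WT, against 323, 328 and 318 in fresh KO and 318, 319.7 and 309.7 in fresh WT. It had the largest fold change of the complex, 1.95 (SE 0.05, edgeR adjusted p = 2.23e-14) in KO and 1.91 (SE 0.05, edgeR adjusted p = 3.76e-14) in WT. Eif3a, for the scaffold subunit, had 1086, 1129 and 1077 CPM in stimulated KO libraries and 1175, 1036 and 1051 in stimulated WT, against 543, 571 and 528 in fresh KO and 544, 544 and 539 in fresh WT, a log2 fold change of 1.00 (SE 0.06) in KO and 1.00 (SE 0.06) in WT. Eif3b, the other large core subunit gene, changed by 1.55 in KO and 1.36 in WT, and Eif3d, Eif3g, Eif3i and Eif3l changed by 0.77 to 1.24 over both genotypes.

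The genes of the MPN-domain subunits, Eif3f and Eif3h, were the ones called lower, Eif3f in both genotypes and Eif3h in WT. Eif3f had 247, 254 and 245 CPM in stimulated KO libraries and 251, 251 and 255 in stimulated WT, against 289, 305 and 306 in fresh KO and 324, 323 and 345 in fresh WT. Stimulated libraries were below fresh ones without overlap in each genotype, with log2 fold changes of -0.27 (SE 0.04, edgeR adjusted p = 1.86e-05) in KO and -0.39 (SE 0.04, edgeR adjusted p = 3.4e-07) in WT. Eif3h had 353, 363 and 354 CPM in stimulated KO libraries and 363, 377 and 373 in stimulated WT, against 369, 354 and 386 in fresh KO and 409.9, 397 and 422 in fresh WT. Its log2 fold change was -0.05 (SE 0.04, edgeR adjusted p = 0.289) in KO, where the groups overlapped, and -0.14 (SE 0.04, edgeR adjusted p = 0.00731) in WT, where they did not. Eif3e, Eif3k and Eif3m had log2 fold changes of 0.10 to 0.40. The WT value of Eif3e (edgeR adjusted p = 0.0705) would have been called without fresh WT replicate 3 (0.0285), and the KO call of Eif3k (edgeR adjusted p = 0.0147) was lost without fresh KO replicate 2 (0.0704) or without the libraries with Y-linked reads (0.152).

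Per kilobase, the order of the eIF3 subunits changed with stimulation. Eif3c was the highest after stimulation, at 369.8 ± 11.4 CPM per kb in KO and 351 ± 21.6 in WT, and Eif3f the lowest, at 98.8 ± 2.00 in KO and 100.4 ± 0.989 in WT. In fresh cells Eif3h was the highest, at 285 ± 12.5 in KO and 316 ± 9.69 in WT, and Eif3b the lowest, at 73.7 ± 2.48 in KO and 78.1 ± 1.49 in WT. The ratio of highest to lowest was 3.74 in stimulated KO and 3.5 in stimulated WT, against 3.87 in fresh KO and 4.05 in fresh WT.

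**Figure D3:**
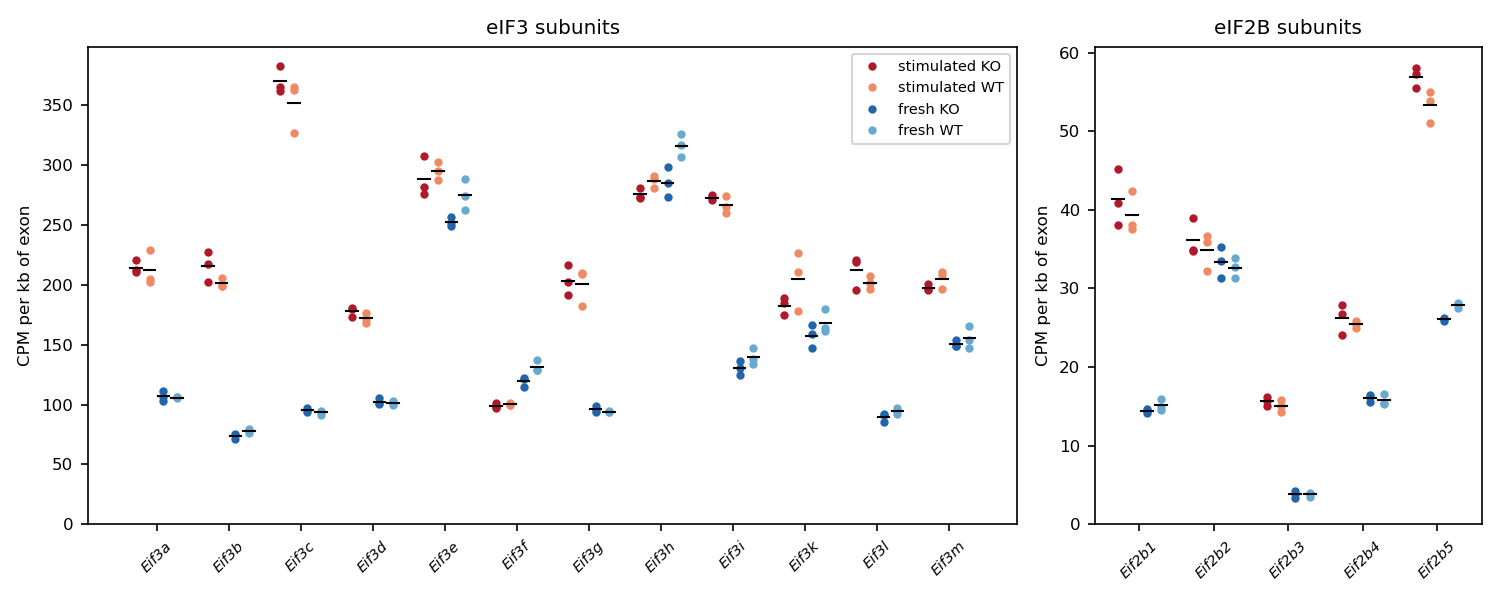
CPM per kb of exon for 12 eIF3 subunits (left) and 5 eIF2B subunits (right), with a point for each library, a black line for the mean of 3, and the groups of each gene in order stimulated KO, stimulated WT, fresh KO and fresh WT. Eif3c is the highest subunit in stimulated cells and among the lowest in fresh cells, while the points of Eif3e and Eif3h lie close together across the groups.

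The eIF4F genes included paralogs that moved in opposite directions. Of 10 tested genes of the cap-binding complex and its cofactors, 8 were called higher and 2 lower in each genotype. Over all tested genes 41.7% were called higher and 42.2% lower in KO, and 40.8% and 41.4% in WT. Eif4a1, for the main eIF4A helicase, had 1574, 1572 and 1633 CPM in stimulated KO libraries and 1446, 1548 and 1560 in stimulated WT, against 567.5, 571 and 591 in fresh KO and 575, 574 and 569.9 in fresh WT. Eif4a2, for the other eIF4A helicase, had 422, 470.0 and 432 CPM in stimulated KO libraries and 468.5, 442 and 466.5 in stimulated WT, against 779, 776.5 and 809 in fresh KO and 840.3, 762 and 812 in fresh WT. For each gene stimulated and fresh libraries did not overlap, and they moved in opposite directions. The log2 fold change of Eif4a1 was 1.47 (SE 0.05, edgeR adjusted p = 2.6e-13) in KO and 1.41 (SE 0.05, edgeR adjusted p = 5.06e-13) in WT. For Eif4a2 it was -0.84 (SE 0.05, edgeR adjusted p = 6.03e-10) in KO and -0.81 (SE 0.05, edgeR adjusted p = 1.01e-09) in WT. By counts, which are not corrected for length, Eif4a1 held 78.3 ± 1.15% of the pair in stimulated KO and 76.8 ± 1.15% in stimulated WT, against 42.2 ± 0.124% in fresh KO and 41.6 ± 1.22% in fresh WT. Per kilobase, Eif4a1 was 6.52 ± 0.428 times Eif4a2 in stimulated KO and 5.97 ± 0.380 times in stimulated WT, against 1.32 ± 0.00669 times in fresh KO and 1.29 ± 0.0652 times in fresh WT (SD, n = 3 each, exact two-sided permutation p = 0.1 for each genotype, the smallest that 3 libraries against 3 allow). Both genes had moved without overlap in opposite directions, so their ratio had to separate, and nothing is read from that p. The ratio was also chosen after its values were seen. The start region of Eif4a1 held an E-box and that of Eif4a2 did not, and a link of the motif to these directions was not tested. Among the other genes, Eif2s2 and Eif3c were called higher without an E-box in their windows, and Eif3f was called lower with one.

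The makeup of the cap-binding protein genes also differed between the states. Eif4e, for the cap-binding subunit, had 218, 249 and 229 CPM in stimulated KO libraries and 225, 214 and 218 in stimulated WT, against 57.0, 58.4 and 53.5 in fresh KO and 56.7, 58.4 and 59.9 in fresh WT. Every stimulated library was above every fresh one, with log2 fold changes of 2.04 (SE 0.05, edgeR adjusted p = 1.36e-14) in KO and 1.91 (SE 0.05, edgeR adjusted p = 3.89e-14) in WT. Eif4e2, for the homologue 4EHP, which binds the cap without binding eIF4G, changed by 0.30 (SE 0.05) in KO and 0.33 (SE 0.05) in WT. Of the summed counts of Eif4e, Eif4e2 and Eif4e3, Eif4e held 60.9 ± 1.96% in stimulated KO and 60.4 ± 0.980% in stimulated WT, against 32.8 ± 1.22% in fresh KO and 34.7 ± 1.10% in fresh WT. Eif4e2 held 31.9 ± 3.08% in stimulated KO and 32.5 ± 0.936% in stimulated WT, against 57.4 ± 0.833% in fresh KO and 55.7 ± 2.34% in fresh WT. Per kilobase, Eif4e was 2.81 ± 0.375 times Eif4e2 in stimulated KO and 2.72 ± 0.121 times in stimulated WT, against 0.835 ± 0.0424 times in fresh KO and 0.913 ± 0.0617 times in fresh WT. Eif4e3, the paralog with the fewest counts, changed by 0.70 (SE 0.15) in KO and 0.67 (SE 0.15) in WT.

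Among the scaffolds, Eif4g3 had 281, 268 and 276 CPM in stimulated KO libraries and 287, 281 and 289 in stimulated WT, against 343, 338 and 342 in fresh KO and 326, 325 and 329 in fresh WT. It was called lower, with log2 fold changes of -0.31 (SE 0.04, edgeR adjusted p = 1.18e-06) in KO and -0.19 (SE 0.04, edgeR adjusted p = 0.00018) in WT, whereas Eif4g1, for the main scaffold, was called higher, with 1.01 (SE 0.05, edgeR adjusted p = 2.35e-11) in KO and 0.88 (SE 0.05, edgeR adjusted p = 1.49e-10) in WT. Eif4g2, for DAP5, which resembles the scaffold but lacks the eIF4E-binding part, had 1754, 1861 and 1881 CPM in stimulated KO libraries and 1787, 1639 and 1713 in stimulated WT, against 1152, 1171 and 1125 in fresh KO and 1203, 1251 and 1196 in fresh WT, and was called higher by 0.67 (SE 0.05) in KO and 0.49 (SE 0.05) in WT. Of the summed counts of the scaffold genes, Eif4g3 held 8.66 ± 0.320% in stimulated KO and 9.52 ± 0.231% in stimulated WT, against 16.9 ± 0.333% in fresh KO and 15.7 ± 0.413% in fresh WT. Eif4g2 held between 56.3% and 59.1% in every library. The helicase cofactor genes Eif4b and Eif4h were called higher, by 0.64 and 1.10 in KO and 0.53 and 1.00 in WT.

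Eif4a3, for the related helicase of the exon junction complex, which marks spliced messages, had 199, 184 and 199 CPM in stimulated KO libraries and 177, 188 and 179 in stimulated WT, against 99.8, 98.0 and 103 in fresh KO and 95.2, 98.2 and 92.8 in fresh WT, and was called higher by 0.95 (SE 0.05) in KO and 0.93 (SE 0.05) in WT.

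The inhibitors of eIF4E held the largest single change. Eif4ebp1, for 4E-BP1, lies at chr8:27260329-27276674 on the plus strand. It had 161, 169 and 180.5 CPM in stimulated KO libraries and 138.5, 172 and 157 in stimulated WT, against 4.62, 5.07 and 5.71 in fresh KO and 6.26, 5.18 and 6.06 in fresh WT. No fresh library exceeded 6.26 CPM and no stimulated library lay under 138.5, and the log2 fold changes were 5.05 (SE 0.10, edgeR adjusted p = 8.55e-16) in KO and 4.75 (SE 0.10, edgeR adjusted p = 1.88e-15) in WT, which is 33.0-fold and 26.9-fold. The paralogs Eif4ebp2 and Eif4ebp3 moved the other way. Eif4ebp2 had 133, 125 and 128 CPM in stimulated KO libraries and 132.5, 132 and 129 in stimulated WT, against 147, 159 and 141 in fresh KO and 156, 178 and 166 in fresh WT, and Eif4ebp3 had 14.4, 13.8 and 14.1 CPM in stimulated KO libraries and 13.3, 14.6 and 13.0 in stimulated WT, against 17.97, 18.5 and 17.2 in fresh KO and 17.1, 18.8 and 16.9 in fresh WT. Both were called lower. The log2 fold change of Eif4ebp2 was -0.21 (SE 0.05, edgeR adjusted p = 0.00187) in KO and -0.34 (SE 0.05, edgeR adjusted p = 2.36e-05) in WT. That of Eif4ebp3 was -0.35 (SE 0.08, edgeR adjusted p = 0.000922) in KO and -0.37 (SE 0.08, edgeR adjusted p = 0.000629) in WT, and in neither genotype did stimulated and fresh libraries overlap.

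The makeup of the 4E-BP family differed between the states. Eif4ebp1 held 54.4 ± 1.97% of its counts in stimulated KO and 51.7 ± 2.69% in stimulated WT, against 2.99 ± 0.415% in fresh KO and 3.09 ± 0.475% in fresh WT, and Eif4ebp2 held 41.1 ± 1.83% in stimulated KO and 43.7 ± 2.60% in stimulated WT, against 86.6 ± 0.506% in fresh KO and 87.6 ± 0.593% in fresh WT. The summed level of the inhibitors per kilobase was 2.80 ± 0.199 times that of Eif4e in stimulated KO and 2.79 ± 0.280 times in stimulated WT, against 4.77 ± 0.0923 times in fresh KO and 4.86 ± 0.257 times in fresh WT (exact two-sided permutation p = 0.1 for each genotype, the smallest possible). The ratio was lower in each stimulated library than in any fresh one, and it was chosen after its values were seen. Eif4enif1, for 4E-T, which carries eIF4E into the nucleus and into P-bodies, had 347, 384 and 343 CPM in stimulated KO libraries and 322, 336 and 309 in stimulated WT, against 92.6, 95.3 and 91.9 in fresh KO and 102, 101 and 97.3 in fresh WT. It was called higher by 1.94 (SE 0.05, edgeR adjusted p = 1.32e-14) in KO and 1.69 (SE 0.05, edgeR adjusted p = 7.5e-14) in WT, with no overlap between stimulated and fresh libraries.

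**Figure D4:**
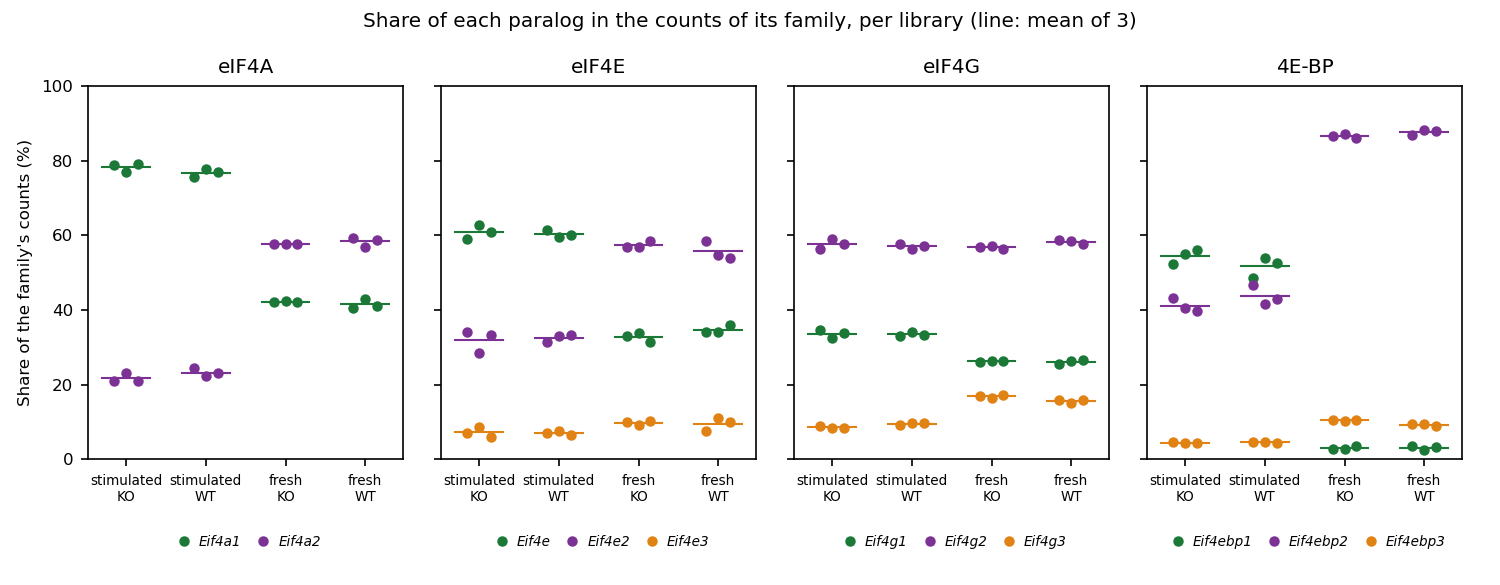
Share of each paralog in the summed counts of its family, in percent, for each library (points) with the mean of 3 (lines), for eIF4A, eIF4E, eIF4G and the 4E-BP family. Eif4a1, Eif4e and Eif4ebp1 hold larger shares in stimulated than in fresh libraries, Eif4g2 stays near 57%, and KO and WT lie close together.

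Late factors were all called higher in each genotype, 4 of 4, where 41.7% of all tested genes were in KO and 40.8% in WT. Eif5a, for the hypusine-bearing factor that helps ribosomes past difficult peptide bonds, lies at chr11:69916714-69921958 on the minus strand. It had 1836, 1876 and 1935 CPM in stimulated KO libraries and 1757, 1930 and 1862 in stimulated WT, against 398.5, 400.2 and 423 in fresh KO and 400.4, 420.5 and 424 in fresh WT. Its log2 fold changes were 2.21 (SE 0.06, edgeR adjusted p = 9.38e-15) in KO and 2.16 (SE 0.06, edgeR adjusted p = 1.56e-14) in WT. Eif5a2, the paralog of low level, held 1.08 ± 0.0540% of the counts of the pair in stimulated KO and 0.917 ± 0.104% in stimulated WT, against 2.20 ± 0.322% in fresh KO and 1.77 ± 0.217% in fresh WT. Eif6, for the factor that keeps the ribosomal subunits apart, changed by 1.60 in KO and 1.57 in WT, and Eif5b, for the GTPase that joins them, by 1.20 in KO and 1.16 in WT.

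By level per kilobase, the leading genes also changed. Eif4a1 (898 CPM per kb), Eif5a (792) and Eif1 (481.5) led in stimulated KO, as they did in stimulated WT (856, 778 and 474). In fresh KO these were Eif1 (393), Eif4a1 (325) and Eif3h (285), and in fresh WT Eif1 (420.1), Eif4a1 (323) and Eif3h (316).

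Of the 4 Argonaute genes, 1 was called higher and 3 lower in each genotype, where 42.2% of all tested genes were called lower in KO and 41.4% in WT. The 3 include Eif2c4, whose direction the filter fixed, and with so few genes no trend of the family is read from the count. Eif2c2 (Ago2), for the Argonaute that cuts its targets, had 388, 385 and 395 CPM in stimulated KO libraries and 381, 379.7 and 399.5 in stimulated WT, against 290.2, 340.0 and 288.5 in fresh KO and 299.7, 325 and 286 in fresh WT, a log2 fold change of 0.35 (SE 0.06) in KO and 0.35 (SE 0.06) in WT. Eif2c1 (Ago1) had 108, 113 and 106.5 CPM in stimulated KO libraries and 115, 111 and 109.9 in stimulated WT, against 145, 150.5 and 138 in fresh KO and 151, 154 and 153 in fresh WT, and Eif2c3 (Ago3) had 29.3, 27.2 and 29.8 CPM in stimulated KO libraries and 36.6, 31.9 and 31.1 in stimulated WT, against 46.6, 47.3 and 42.0 in fresh KO and 40.8, 44.3 and 43.8 in fresh WT. Both were lower in all stimulated libraries, Eif2c1 with log2 fold changes of -0.40 (SE 0.04) in KO and -0.45 (SE 0.04) in WT and Eif2c3 with -0.65 (SE 0.07) in KO and -0.38 (SE 0.07) in WT. Eif2c4 (Ago4), which the filter kept for its fresh libraries, had 0.155, 0.209 and 0.258 CPM in stimulated KO libraries and 0.251, 0.0482 and 0.208 in stimulated WT, against 1.14, 1.31 and 1.34 in fresh KO and 1.40, 1.41 and 1.86 in fresh WT.

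Of other genes of the translation pathway, termination and recycling factors, poly(A)-binding proteins and accessory initiation factors also moved mostly upward with stimulation. In KO, 7 of 8 tested termination and recycling genes were called higher and 1 lower, and in WT 6 were called higher and 1 lower, where 41.7% of all tested genes were called higher in KO and 40.8% in WT. The release factor genes Etf1 and Gspt1 changed by 1.99 and 1.48 in KO and 1.95 and 1.35 in WT. Among poly(A)-binding proteins and their partners 7 of 8 were higher and 1, Paip2, was lower in each genotype. The 7 included its paralog Paip2b. That gene averaged 89.56 CPM in stimulated KO and 90.53 in stimulated WT, against 63.24 in fresh KO and 60.44 in fresh WT. Pabpc4 changed by 1.93 in KO and 1.67 in WT. All 7 accessory initiation factors were called higher in each genotype, Bzw2 most, by 1.28 in KO and 1.13 in WT. Elongation factors were divided, with 5 of 8 called higher and 1 lower in KO and 5 higher and 2 lower in WT. Eef1a1, which delivers tRNA to the elongating ribosome, was called lower, with log2 fold changes of -0.25 in KO and -0.30 in WT. Both hypusination enzyme genes, Dhps and Dohh, were higher in each genotype, and of 3 mitochondrial initiation genes Mtif2 was higher and Mtif3 lower.

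Of 11 genes for regulators of eIF4E and eIF4A, 2 were called higher and 6 lower in KO, where 42.2% of all tested genes were called lower, and 3 were called higher and 8 lower in WT, where 41.4% were called lower. The count in KO lay near that background. Pdcd4, an inhibitor that holds eIF4A, had 85.5, 81.3 and 66.8 CPM in stimulated KO libraries and 97.6, 84.4 and 82.0 in stimulated WT, against 339.9, 336 and 309.6 in fresh KO and 364, 387 and 346.5 in fresh WT. It was called lower, with log2 fold changes of -2.08 (SE 0.09, edgeR adjusted p = 2.05e-12) in KO and -2.06 (SE 0.09, edgeR adjusted p = 2.62e-12) in WT, and no stimulated library reached a fresh one. Mknk1, for a kinase of eIF4E, was called lower (-0.79 in KO and -0.70 in WT), while Mtor was called higher (0.52 in KO and 0.53 in WT).

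Of 11 genes for eIF2 phosphatase subunits and the stress response downstream of eIF2, 6 were called higher and 2 lower in KO and 6 higher and 1 lower in WT. These counts of higher genes lay near the 41.7% in KO and 40.8% in WT of all tested genes. Ppp1r15a, for GADD34, the stress-induced phosphatase subunit that acts on eIF2, had 49.6, 58.8 and 53.3 CPM in stimulated KO libraries and 39.1, 58.1 and 54.1 in stimulated WT, against 394, 392 and 386 in fresh KO and 447, 379.9 and 471.5 in fresh WT, and was called lower, with log2 fold changes of -2.86 (SE 0.12) in KO and -3.10 (SE 0.12) in WT. Atf4, for a transcription factor whose message is translated better when eIF2 is phosphorylated, averaged 589.6 ± 25.4 CPM in stimulated KO and 538 ± 28.1 in stimulated WT, against 207 ± 0.791 in fresh KO and 214 ± 4.85 in fresh WT. Its target genes Trib3 and Chac1 changed by 6.16 and 7.34 in KO and by 6.00 and 7.22 in WT. Chac1 had at most 0.4155 CPM in a fresh library, near the floor of 3 counts, and at least 35.82 in a stimulated one. It passed the filter on low counts through the stimulated libraries and had to come out higher, and nothing is read from its change.

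Loss of Otub1 gave no change called with edgeR in any initiation gene in either state. In stimulated cells 0 of 53 genes were called with edgeR, where 9.30% of all tested genes were, and DESeq2 and limma-voom called 0 as well. At an unadjusted p under 0.05, 5 were higher and 2 lower in KO, 13.2% of the 53, where 23.7% of all tested genes passed. KO and WT libraries did not overlap for 13 genes (24.5%, against 27.4% of all tested genes), 9 higher and 4 lower in KO, where 14.3% and 13.1% of all tested genes were. The median log2 fold change was 0.05. For 52 of the 53 genes the 95% interval lay within 1.5-fold in either direction, and the exception was Eif2c4. In the same comparison 1 of 7 CD8 T cell markers was called higher and 4 lower, 1 of 10 dendritic cell markers higher and 1 of 5 myeloid markers lower in KO. Of the myeloid markers, Ly6c2 was at 36.61 to 42.81 CPM in stimulated KO and 58.86 to 72.99 in stimulated WT. The others had at most 0.5231 CPM in a stimulated library, so no difference in myeloid cells is read from the count. What cells with any of these markers contributed to the values was not tested.

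In stimulated cells the smallest p belonged to Eif4enif1, with 347, 384 and 343 CPM in stimulated KO and 322, 336 and 309 in stimulated WT and a log2 fold change of 0.15 (95% interval 0.05 to 0.25, edgeR adjusted p = 0.0656). Next came Eif1ax, at 162, 155.5 and 163 CPM in stimulated KO and 149, 138 and 140.2 in stimulated WT, with a log2 fold change of 0.17 (95% interval 0.05 to 0.29, edgeR adjusted p = 0.0734). For both genes each KO library was above each WT library, by a margin that did not pass the adjusted threshold. Eif2c3 was lower in all KO libraries, with a log2 fold change of -0.20 (95% interval -0.36 to -0.04, edgeR adjusted p = 0.115).

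In fresh cells 0 of 53 genes were called with edgeR, where 1.20% of all tested genes were. DESeq2 called 2 lower in KO, Eif2a (DESeq2 adjusted p = 0.0214) and Eif4b (DESeq2 adjusted p = 0.0152), and limma-voom called 0. At an unadjusted p under 0.05, 1 was higher and 7 lower, 15.1% of the 53, where 14.1% of all tested genes passed. Libraries did not overlap for 13 genes (24.5%, against 20.0% of all tested genes), 2 higher and 11 lower in KO, where 10.6% and 9.42% of all tested genes were. The median log2 fold change was -0.03. The 95% interval lay within 2-fold for all 53 genes and within 1.5-fold for 52.

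Among these, Eif2a had 60.4, 59.0 and 52.9 CPM in fresh KO and 66.9, 66.2 and 71.0 in fresh WT, and every KO library lay below every WT library. Its log2 fold change was -0.24 (95% interval -0.37 to -0.12, edgeR adjusted p = 0.0574). Eif3h and Eif3f followed, with -0.15 (95% interval -0.24 to -0.06, edgeR adjusted p = 0.132) and -0.14 (95% interval -0.23 to -0.05, edgeR adjusted p = 0.136), and their KO libraries too were below the WT libraries.

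**Figure D5:**
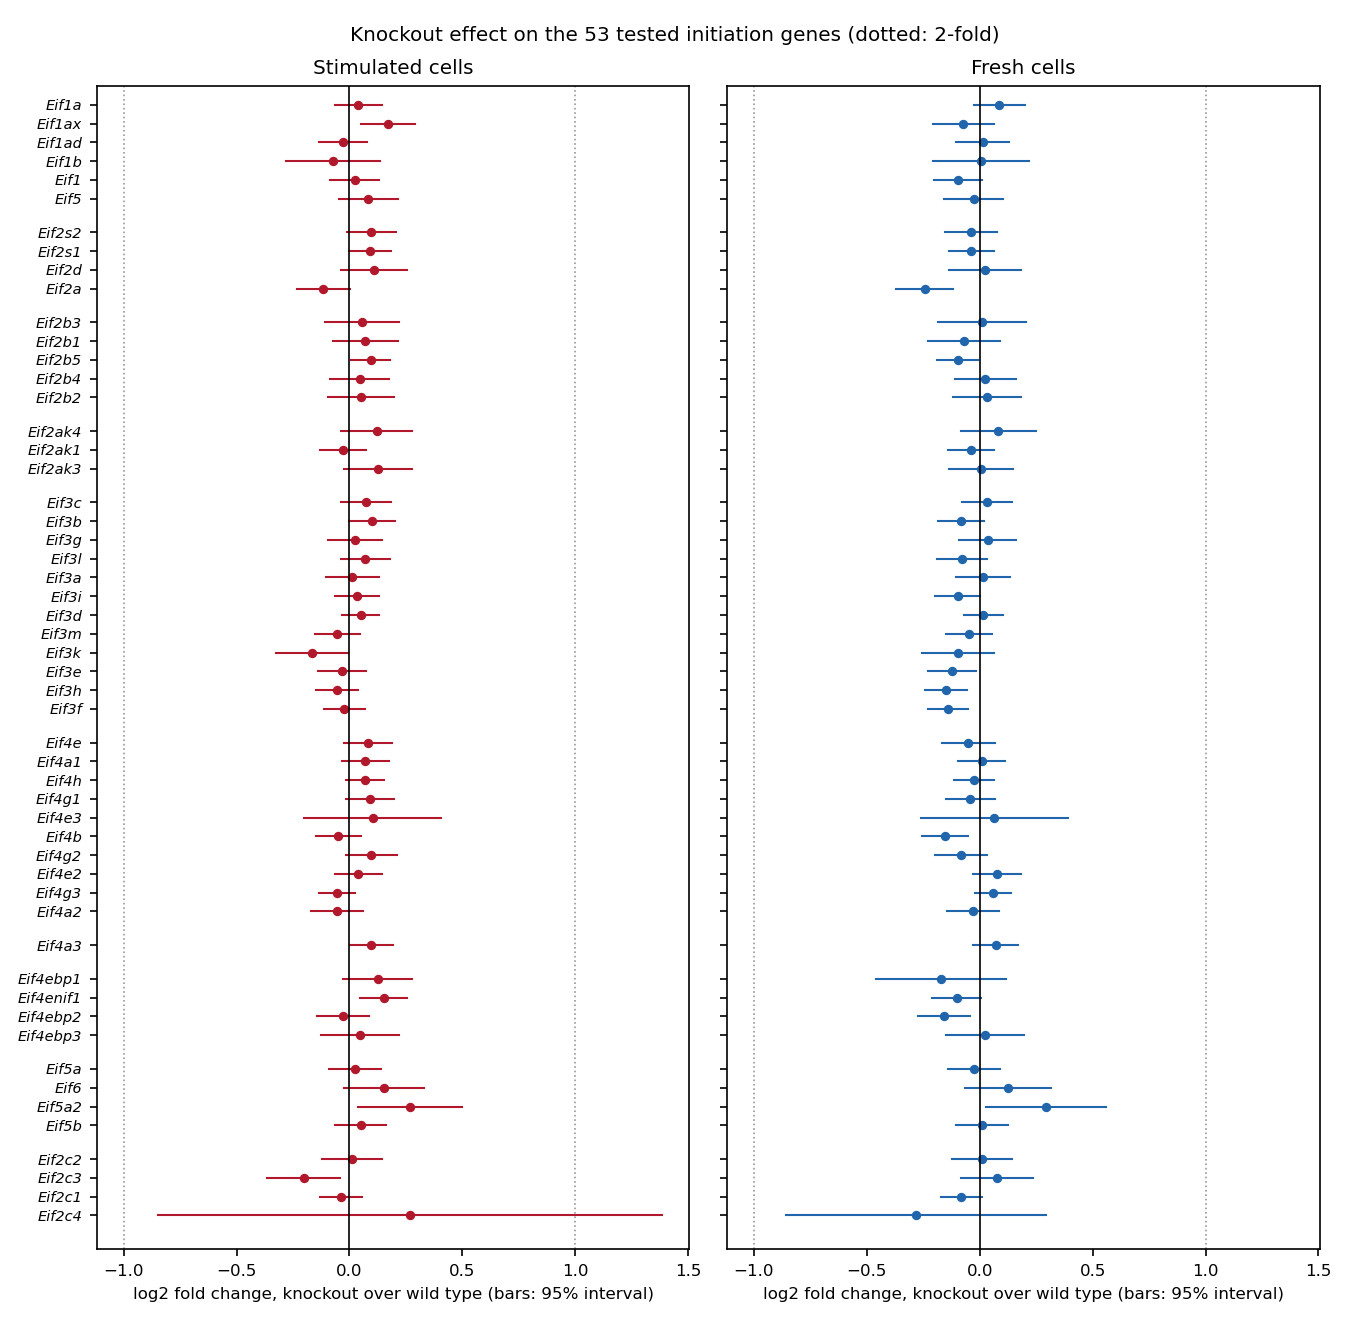
Log2 fold change of the 53 tested genes, KO over WT, in stimulated cells (left) and fresh cells (right), with bars for 95% intervals and dotted lines at 2-fold. Estimates run from -0.20 to 0.27 in stimulated cells and from -0.28 to 0.29 in fresh cells, and the interval of Eif2c4 in stimulated cells alone crosses 2-fold.

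The effect of Otub1 loss did not differ by a called amount between stimulated and fresh cells for any of the 53 genes, where 2.26% of all tested genes were called with edgeR. At an unadjusted p under 0.05, 7 genes passed (13.2%, against 16.3% of all tested genes), 5 with a higher and 2 with a lower effect in stimulated cells, and DESeq2 and limma-voom called 0 as well. For 3 genes (5.66%, against 2.11% of all tested genes) KO and WT libraries did not overlap in either state and the directions were opposite. Eif4enif1 had the smallest p, with a difference of 0.25 (95% interval 0.10 to 0.40, edgeR adjusted p = 0.0749), then Eif2b5 with 0.19 (95% interval 0.07 to 0.32, edgeR adjusted p = 0.108) and Eif1ax with 0.24 (95% interval 0.06 to 0.43, edgeR adjusted p = 0.158). The ratio of Eif4g1 to Eif4g3 per kilobase was 6.51 ± 0.186 in stimulated KO and 5.89 ± 0.111 in stimulated WT, and 2.61 ± 0.0558 in fresh KO and 2.80 ± 0.123 in fresh WT. KO and WT did not overlap in stimulated cells (exact two-sided permutation p = 0.1, the smallest possible). The same p was found in fresh cells, where the highest KO library and the lowest WT library both stood at 2.67. This ratio was chosen after its values were seen. Without the libraries with Y-linked reads 0 of the 53 genes were called in either state or in the difference.

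Among 58 tested genes of the other pathway lists, edgeR called 2 between genotypes in stimulated cells, where 9.30% of all tested genes were called, and 0 in fresh cells, where 1.20% were. At an unadjusted p under 0.05, 7 were higher and 2 lower in KO in stimulated cells, where 23.7% of all tested genes passed, and 6 were higher and 10 lower in KO in fresh cells, where 14.1% passed. Mknk2, for a kinase of eIF4E, had 395, 396 and 423 CPM in stimulated KO and 334, 359.6 and 341 in stimulated WT, a log2 fold change of 0.23 (SE 0.05, edgeR adjusted p = 0.014). Cyfip1, for a protein that binds eIF4E and represses it in neurons, had 12.9, 11.9 and 11.9 CPM in stimulated KO and 9.67, 8.67 and 9.48 in stimulated WT, a log2 fold change of 0.40 (SE 0.09, edgeR adjusted p = 0.0128). KO libraries were above WT libraries for both. The call of Mknk2 was lost without the libraries with Y-linked reads (0.0510), stimulated KO replicate 3 (0.0610) or stimulated WT replicate 3 (0.0663), and that of Cyfip1 without stimulated KO replicate 1 (0.0530) or stimulated WT replicate 2 (0.0591). In fresh cells DESeq2 called Eef1b2, Eef1g, Eef2 and Pabpc1 lower and Rptor higher in KO, and limma-voom called Eef1g and Pabpc1 lower.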

How the data were processed

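The authors deposited raw counts per gene, 1 file per library. HTSeq, TopHat, TopHat2, DESeq2 and the mm10 build were used, per the submitters' processing notes. The sources used here do not give their versions, the annotation or the strand setting, so reads of overlapping or antisense genes cannot be told apart. The 5 HTSeq summary lines (5.22% to 6.43% of a file, of which reads that were not unique made up 2.95% to 3.92%) were left out. Groups came from the source labels. Replicate numbers follow accession order and pair nothing, and the labels do not say whether replicates are separate animals, and p-values reflect the scatter of these libraries, which may be technical. No pair of replicates agreed within sampling noise (chi-square over its degrees of freedom was 4.26 to 18.6).

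Counts were filtered with filterByExpr, which left 12759 genes, TMM-scaled and fitted in edgeR 4.0.16 (R 4.3.3) with 1 coefficient per group over all 12 libraries. Tests were two-sided quasi-likelihood tests. The procedure was tested on simulated data. Alternatives were DESeq2 1.42.0, limma-voom (limma 3.58.1), other scalings and filters, only the groups compared, and leaving out libraries. Floors of 3 counts cover counting error only. Levels per kb divide CPM by the exons of protein-coding transcripts of the GENCODE M21 basic set (GRCm38). All 56 symbols matched RefSeq, 4 as older symbols.

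Members and lists were chosen with earlier results of these data known. Named with values per library were the 8 highest and 8 lowest called members of each stimulation comparison with a mean log2 CPM of 2 or more, the 3 smallest p of each knockout comparison and of their difference, and the most abundant member of each role, and, of each pathway list, up to 4 members with the largest change in WT and any called between genotypes. The 4 ratios between paralogs or partners were chosen after their values were seen.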

Additional observations from a re-analysis of the deposited data

Results flagged for a closer look

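The knockout effect had opposite signs in stimulated and in fresh cells for 3 genes whose KO and WT libraries did not overlap in either state. They were 3 of 53 tested initiation genes (5.66%), against 2.11% of all tested genes, and with 3 genes nothing particular to the initiation genes is read from it. The log2 fold change of Eif4enif1, KO over WT, was 0.15 in stimulated cells and -0.10 in fresh cells. That of Eif2b5 was 0.09 in stimulated cells and -0.10 in fresh cells, and that of Eif4g3 was -0.06 in stimulated cells and 0.06 in fresh cells. The difference between the states was tested and not called for any of them, with edgeR adjusted p = 0.0749 for Eif4enif1, 0.108 for Eif2b5 and 0.291 for Eif4g3.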

How the results depend on the processing

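Of 150 counts of called members recomputed under the alternatives, 147 equalled the count reported or stayed within 1.5 times it. The counts between genotypes and for their difference were reported as 0, where only another 0 was taken as the same. At a stricter threshold such a count could only stay at 0. All 3 counts that moved were among these. In fresh cells the number lower in KO was 1 when genes with any count were tested (Eif2a, edgeR adjusted p = 0.0476) and 2 with DESeq2. In stimulated cells the number lower in KO was 0 to 1 over the fits without 1 replicate, the 1 being Eif3k without stimulated WT replicate 1 (log2 fold change -0.26, edgeR adjusted p = 0.0182). With stimulation, leaving out 1 replicate gave 40 to 41 genes higher and 9 lower in KO, and 39 to 41 higher and 10 lower in WT. Without the libraries with Y-linked reads these were 39 and 9 in KO and 41 and 10 in WT. At an adjusted p under 0.01 they were 40 and 9 in KO and 39 and 10 in WT. The cause of these differences was not tested. No paired analysis was possible because the labels give the groups no shared replicate numbers. The 95% interval of a knockout effect reached a median of 0.113 log2 units to either side in stimulated cells and 0.115 in fresh cells, and Eif2c4, near the floor of 3 counts after stimulation, had the widest.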
